A study of Mus musculus with 16 samples.

Results

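The citric acid cycle and the enzymes that feed it were examined through 30 genes, taken from the deposited array table of mouse kidney by gene symbol. Where several rows carried a symbol, the brightest on average across all 16 arrays was used. Of the 30 genes, 29 matched among the 19938 genes tested. Mpc2, which encodes a subunit of the mitochondrial pyruvate carrier, was not analysed here. The members were grouped by step: pyruvate entry (6 genes), citrate to 2-oxoglutarate (7), 2-oxoglutarate to succinate (6), fumarate to oxaloacetate (3), the malic enzymes with ATP citrate lyase (4), and the glutamate and aspartate enzymes (3).

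Pyruvate from the cytosol enters the mitochondrion through a carrier and is converted to acetyl-CoA by the pyruvate dehydrogenase complex. The citric acid cycle joins acetyl-CoA to oxaloacetate, releases its carbon as carbon dioxide and passes electrons to the respiratory chain as NADH and FADH2. Tubule cells of the kidney, above all those of the proximal tubule, hold many mitochondria and rely on this oxidation for solute transport. Malic enzymes, glutamate dehydrogenase and the aspartate aminotransferases connect the cycle with NADPH supply, amino acids and the exchange of reducing equivalents between cytosol and mitochondrion.

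The kidneys came from 4 groups of male and female mice, of 24 to 31 g, from a single transgenic line in which doxycycline induces deletion of Vhl in renal tubule cells. The von Hippel-Lindau protein, the product of Vhl, directs hypoxia-inducible factors (HIF) to degradation, and the series title places HIF, metabolism and acute kidney injury (AKI) together. VHL-KO/AKI mice (n = 5) received doxycycline and glycerol. AKI mice (n = 5) received an intramuscular injection of 50% glycerol into a hind limb, 0.05 ml per 10 g, which breaks down muscle (rhabdomyolysis) and injures the kidney. VHL-KO mice (n = 3) received doxycycline under the skin, 0.1 mg per 10 g, at 4 days before the end, and Control mice (n = 3) were untreated. Water was withheld from both injured groups, starting 20 h before glycerol and ending 24 h after it. The genotype label reads wild type where no doxycycline was given, whereas the design text gives every mouse the transgenes, which act in Pax8-expressing cells through Pax8-rtTA. No group received doxycycline without the deletion or lost water without glycerol, and the age of the mice is not given in the sources used here. Each array held RNA from part of a kidney of 1 labelled biological replicate, and p-values measure the spread between these replicates.

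Levels are log2 values, and differences are log2 differences. A gene was called when its Benjamini-Hochberg adjusted p over all 19938 genes, from limma, was under 0.05. Vhl itself stood at 6.35 to 6.66 in VHL-KO/AKI kidneys against 7.01 to 7.36 in AKI kidneys (difference -0.67, limma adjusted p = 9.98e-05). It stood at 6.62 to 6.70 in VHL-KO kidneys against 7.03 to 7.10 in Control kidneys (difference -0.40, adjusted p = 0.0565). The groups did not overlap in either comparison.

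A pair of facts about the arrays touches most results. First, the injured and uninjured kidneys differed in sex-linked RNA: Xist, transcribed from the inactive X chromosome, stood at 4.16 to 5.08 in the 10 injured kidneys and at 10.23 to 11.47 in the 6 uninjured ones, and the mean of 3 Y-linked genes (Uty, Eif2s3y, Kdm5d) at 7.77 to 8.27 in the injured kidneys. In the uninjured kidneys that mean was 4.81 to 5.01, except in Control 3, which carried both signals (Xist 10.23, Y-linked mean 7.43). Injury and sex-linked signal therefore cannot be told apart in the comparisons of injured with uninjured kidneys. Second, AKI 4 stood apart from its group: its mean correlation with the other AKI arrays was 0.973, against 0.988 to 0.989 for each of the others. AKI 4 held the highest of the 5 AKI values in 25 of the 29 members (86.2%, against 29.6% of all genes), and a median of 0.46 above the mean of the other 4 arrays (all genes, -0.002). Results whose call AKI 4 decided are given with and without it.

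Averaged over the 29 members, the level was 10.16 to 10.33 in the VHL-KO/AKI kidneys and 10.45 to 10.55 in the VHL-KO kidneys. It was 10.06, 10.07, 10.07, 10.54 and 10.09 in AKI kidneys 1 to 5, against 10.45 to 10.48 in the Control kidneys. All VHL-KO/AKI arrays lay below all VHL-KO arrays, and 4 of the 5 AKI arrays lay below all Control arrays, AKI 4 being above them. The array means carry no test. Markers of the proximal tubule were also lower in the injured kidneys: the mean level of 10 markers was 10.75 to 11.51 in VHL-KO/AKI, 10.56 to 11.99 in AKI with AKI 4 highest, 12.02 to 12.21 in VHL-KO and 12.43 to 12.48 in Control kidneys. Unlike the mean of the members, the mean of these markers was also lower in every VHL-KO array than in every Control array. Taken singly, 5 of the 10 markers lay apart in this way (5.33% of all genes). The 6 markers of the thick ascending limb averaged 9.86 to 11.18 in VHL-KO/AKI, 9.24 to 11.12 in AKI with AKI 4 again highest, 11.51 to 11.69 in VHL-KO and 11.58 to 11.75 in Control kidneys. Adipose markers moved the other way, at 7.15 to 8.72 in VHL-KO/AKI, 7.05 to 8.57 in AKI, 5.72 to 6.15 in VHL-KO and 5.67 to 6.36 in Control kidneys. In AKI against Control kidneys, 9 of 10 proximal tubule and 5 of 6 thick ascending limb markers fell, and 3 of 3 adipose and 5 of 5 neutrophil markers rose. Of all genes, 14.9% were called lower there and 13.2% higher. The same counts in VHL-KO/AKI against VHL-KO kidneys were 7 of 10, 1 of 6, 3 of 3 and 0 of 5 (8.91% of all genes lower and 4.66% higher). Without AKI 4 they were 9 of 10, 3 of 6, 3 of 3 and 0 of 5 there (12.9% of all genes lower and 6.73% higher). In AKI against Control kidneys they were then 10 of 10, 6 of 6, 3 of 3 and 5 of 5 (17% of all genes lower and 17.2% higher). Markers of the distal convoluted tubule fell in 4 of 4 genes in VHL-KO/AKI against VHL-KO kidneys (median difference -1.26) and in 3 of 4 in AKI against Control kidneys (median -1.30). Endothelial markers averaged 9.25 in VHL-KO/AKI, 9.13 in AKI, 9.85 in VHL-KO and 9.29 in Control kidneys, so the VHL-KO reference stood highest. In the same order of comparisons, endothelial markers fell in 4 of 5 and 2 of 5, collecting duct markers fell in 2 of 6 and 3 of 6, and of 6 macrophage markers 2 rose and 1 fell in each. Of 4 skeletal muscle markers 0 and 1 rose, and 0 of 4 adrenal markers were called by limma in either comparison (0 at an unadjusted p under 0.05). Without AKI 4, collecting duct markers fell in 3 of 6 and 4 of 6 and macrophage markers in 2 of 6 and 1 of 6. Skeletal muscle markers then rose in 1 of 4 in each. The part of all these markers in the members' differences was not tested. In bulk tissue, fewer cells of a type and less RNA per cell cannot be told apart.

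**Figure D1:**
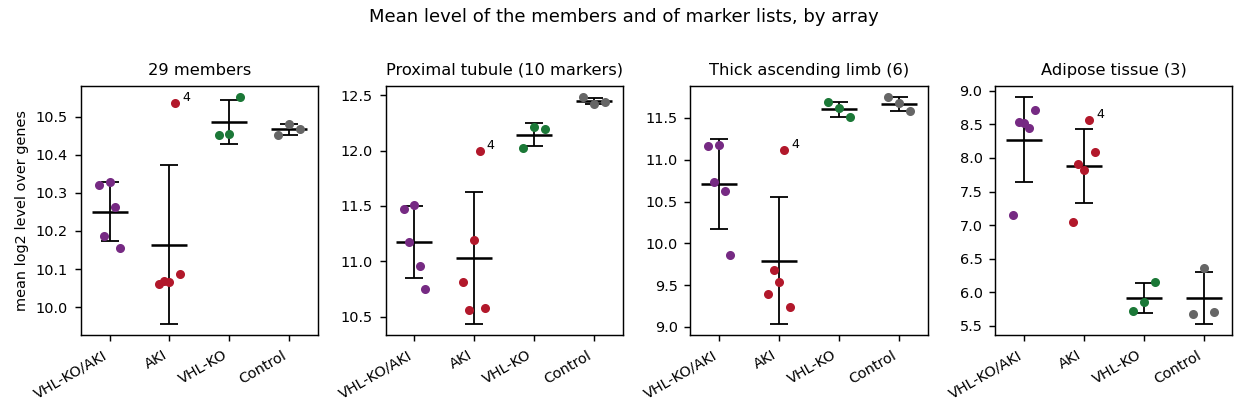
Mean log2 level (vertical axes, a scale for each panel) over the 29 members, 10 proximal tubule markers, 6 thick ascending limb markers and 3 adipose markers, 1 point per array, with group mean and SD as bars and AKI 4 numbered. AKI 4 lies at 10.54 over the members, above the other 4 AKI arrays at 10.06 to 10.09, and is also the highest AKI array in the 3 marker lists.

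Injury without the deletion was examined by setting AKI kidneys against Control kidneys. Of the 29 members, 14 fell (48.3%, where 14.9% of all tested genes were called lower) and 1 rose (3.45%, where 13.2% of all genes were called higher). The falls were largest for Me3 and Idh2, mitochondrial enzymes that form NADPH, and each of the 6 groups of steps held at least 1 fall. The median difference over the members was -0.28, against 0.02 over all genes, and 24 of the 29 differences were negative (82.8%, against 45.2% of all genes). In 10 members every AKI array lay below every Control array (13.8% of all genes did so), and in 2, Pdhx and Acly, every one lay above (13.5% of all genes).

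Promoter sequence was read for the members to show where the letters of a HIF binding motif occur near their start sites. RefSeq windows (GRCm38.p6) were available for 28 of the 30 member genes, each from 250 bases before to 50 bases after a start site, and were searched on both strands. The letters GCGTG occurred in a window of 16 of the 28 genes (57.1%, against 35.2% of all 27025 genes with a window), ACGTG in 7 (25%, against 21.8%) and AAGGTCA, letters bound by estrogen-related receptors, in 2 (7.14%, against 5.38%). Both strands of CACGTG read as ACGTG, and neighbouring matches of ACGTG and GCGTG can share bases. A match is a description of letters and not a site of binding, and the members were not called by the deletion with all arrays. The shares were not tested, and the windows were not matched for base composition. The sequences below are the 250 bases before the start of Idh2 (chr7:80115351-80115600, minus strand) and Me3 (chr7:89632568-89632817, plus strand), which had the largest falls, of Mdh1 (chr11:21571935-21572184, minus strand), whose window holds ACGTG, and of Pdhx (chr2:103073514-103073763, minus strand), the member that rose. They run 5′ to 3′ along the gene, and capitals mark ACGTG or GCGTG on either strand.
Idh2: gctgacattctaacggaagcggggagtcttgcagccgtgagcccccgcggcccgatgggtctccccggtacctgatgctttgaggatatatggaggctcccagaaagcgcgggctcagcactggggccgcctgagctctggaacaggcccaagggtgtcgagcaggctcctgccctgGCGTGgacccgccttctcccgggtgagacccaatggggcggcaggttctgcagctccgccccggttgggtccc
Me3: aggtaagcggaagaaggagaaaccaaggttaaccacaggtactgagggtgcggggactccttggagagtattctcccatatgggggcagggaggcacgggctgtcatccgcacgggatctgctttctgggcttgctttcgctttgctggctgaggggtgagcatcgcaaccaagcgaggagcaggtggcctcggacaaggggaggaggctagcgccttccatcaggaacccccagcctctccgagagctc
Mdh1: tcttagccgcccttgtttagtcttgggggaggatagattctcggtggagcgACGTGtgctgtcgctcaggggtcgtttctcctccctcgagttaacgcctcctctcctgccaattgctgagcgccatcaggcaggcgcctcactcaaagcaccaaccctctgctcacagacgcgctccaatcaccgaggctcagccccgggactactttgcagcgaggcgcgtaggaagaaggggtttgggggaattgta
Pdhx: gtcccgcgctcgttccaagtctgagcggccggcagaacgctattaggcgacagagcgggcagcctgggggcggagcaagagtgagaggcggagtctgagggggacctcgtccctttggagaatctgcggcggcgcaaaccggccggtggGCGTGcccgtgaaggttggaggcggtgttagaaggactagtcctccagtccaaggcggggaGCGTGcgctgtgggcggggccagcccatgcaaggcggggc

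The upstream sequence of Idh2 holds 1 GCGTG and that of Pdhx holds 2, that of Mdh1 holds 1 ACGTG, and that of Me3 holds neither.

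The step from citrate to 2-oxoglutarate held 5 called falls among its 7 genes. Idh2, the mitochondrial NADP-dependent isocitrate dehydrogenase, had 9.03, 9.12, 9.29, 10.47 and 9.04 in AKI kidneys, against 10.91, 10.60 and 10.64 in Control kidneys. Even AKI 4, at 10.47, was below the lowest Control array, so the groups did not overlap. Idh2 fell by 1.33 (SE 0.25, limma adjusted p = 0.00123), to 0.398 times the Control level, and by 1.60, to 0.330 times, without AKI 4. Aco1, the cytosolic aconitase that also serves as an iron regulatory protein, had 10.50, 10.38, 10.41, 10.87 and 10.24 in AKI kidneys, against 11.16, 11.03 and 11.18 in Control kidneys. These groups did not overlap either, and Aco1 fell by 0.64 (SE 0.13, adjusted p = 0.00228).

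The NAD-dependent isocitrate dehydrogenase, which catalyses the same oxidation inside the cycle, is built from the products of Idh3a, Idh3b and Idh3g. Idh3b had 11.17, 11.25, 11.33, 11.92 and 11.38 in AKI kidneys, against 11.99, 11.94 and 11.87 in Control kidneys. AKI 4 alone overlapped the Control arrays. Idh3b fell by 0.52 (SE 0.13, adjusted p = 0.00679). Idh3g, an X-linked gene, fell by 0.36 (SE 0.12, adjusted p = 0.0434), while the catalytic subunit Idh3a had a difference of -0.20 that was not called (adjusted p = 0.439). Cs, citrate synthase, which opens the cycle, fell by 0.20 (SE 0.07, adjusted p = 0.0487), with no overlap between the groups. The calls for Idh3g and Cs were narrow: leaving out any one of 12 arrays (Idh3g) or 13 arrays (Cs) lifted the adjusted p above the threshold, to at most 0.137 and 0.126.

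From 2-oxoglutarate to succinate, 3 of 6 genes fell, all of them parts of 2-oxoglutarate dehydrogenase or its relative. Ogdh, the first subunit of the complex, had 11.00, 10.71, 11.07, 11.20 and 10.66 in AKI kidneys, against 11.52, 11.66 and 11.58 in Control kidneys. The groups were separate, and Ogdh fell by 0.65 (SE 0.12, adjusted p = 0.00101). Dlst, the succinyltransferase core of the complex, had 10.09, 10.01, 10.03, 10.53 and 10.07 in AKI kidneys, against 10.61, 10.64 and 10.68 in Control kidneys. It fell by 0.50 (SE 0.12, adjusted p = 0.00582), again without overlap. Ogdhl, whose product resembles that of Ogdh, had 5.17, 5.15, 5.27, 5.49 and 5.23 in AKI kidneys, against 5.83, 5.88 and 5.80 in Control kidneys. Its groups did not overlap, and it fell by 0.57 (SE 0.10, adjusted p = 0.000648), although in both groups its level lay below the array medians of 5.92 to 6.03.

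The succinyl-CoA synthetase genes, which act in the next reaction of the cycle, depended on AKI 4. With all arrays the differences were -0.38 for the shared alpha subunit Suclg1 (adjusted p = 0.110), -0.28 for the ADP-forming beta subunit Sucla2 (0.364) and -0.28 for the GDP-forming beta subunit Suclg2 (0.280), and none was called. Without AKI 4 all 3 fell, by 0.50, 0.45 and 0.46. Leaving out AKI 4 raised the number of falling members to 18 of 29 (17% of all genes were then called lower), and the fourth gene added was Pdha1, an X-linked gene for the catalytic alpha subunit of pyruvate dehydrogenase, with a difference of -0.56.

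**Figure D2:**
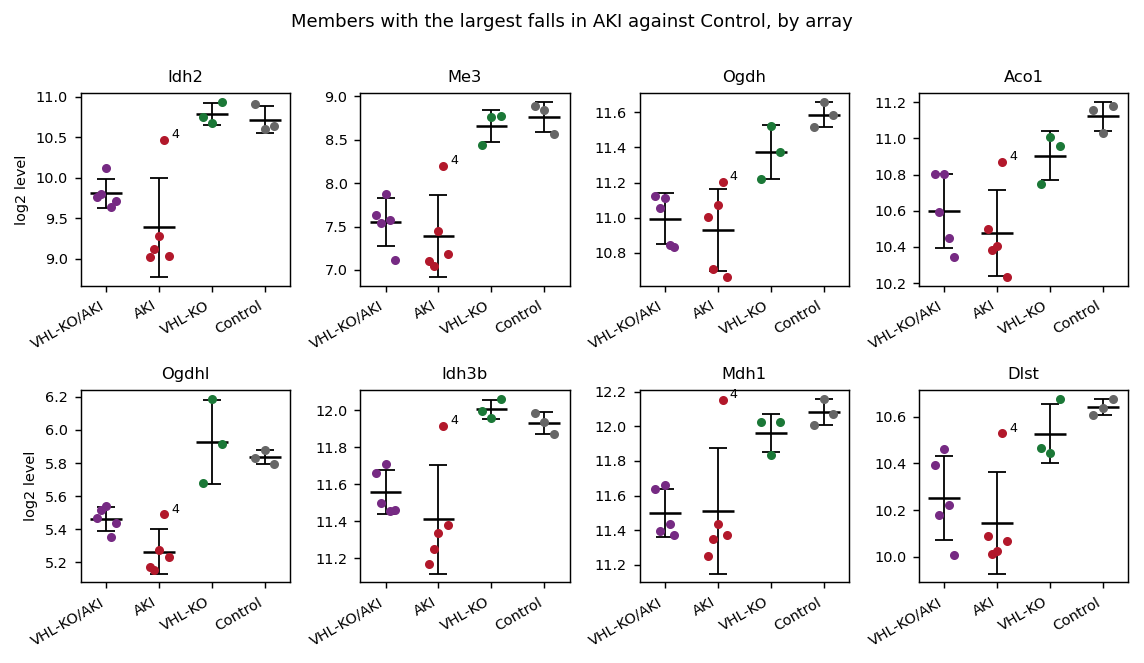
Log2 level (vertical axes, a scale for each gene) of the 8 members with the largest called falls in AKI against Control kidneys, 1 point per array, with group mean and SD as bars and AKI 4 numbered. Idh2 lies at 9.03 to 9.29 in 4 AKI arrays and at 10.47 in AKI 4, against 10.60 to 10.91 in Control kidneys.

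Between fumarate and oxaloacetate, both malate dehydrogenases fell and fumarase was not called. Mdh1, the cytosolic enzyme of the malate-aspartate shuttle, had 11.25, 11.35, 11.43, 12.15 and 11.37 in AKI kidneys, against 12.01, 12.16 and 12.07 in Control kidneys. AKI 4 lay among the Control arrays and the other 4 below them. Mdh1 fell by 0.57 (SE 0.16, adjusted p = 0.0132). Mdh2, the mitochondrial enzyme of the cycle, had 11.59, 11.73, 11.62, 11.97 and 11.73 in AKI kidneys, against 12.08, 12.00 and 11.90 in Control kidneys. It fell by 0.26 (SE 0.08, adjusted p = 0.0275), with AKI 4 overlapping the Control arrays. Fh1, fumarase, had a difference of -0.15 (adjusted p = 0.407).

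Among the malic enzymes, which turn malate into pyruvate, the mitochondrial Me3 and Me2 fell and the cytosolic Me1 was not called. Me3 had 7.10, 7.04, 7.45, 8.20 and 7.18 in AKI kidneys, against 8.89, 8.84 and 8.57 in Control kidneys. The groups were apart by more than the range of the Control arrays, and Me3 fell by 1.37 (SE 0.22, adjusted p = 0.000408), to 0.386 times the Control level, and by 1.57 without AKI 4. Me2 fell by 0.47 (SE 0.13, adjusted p = 0.0107), with no overlap. Me1, which supplies NADPH in the cytosol, had a difference of 0.08 (adjusted p = 0.800). Acly, ATP citrate lyase, which splits citrate into acetyl-CoA and oxaloacetate in the cytosol, had 9.66, 9.68, 9.41, 9.46 and 9.49 in AKI kidneys, against 9.18, 9.40 and 9.22 in Control kidneys. Its AKI arrays all lay above its Control arrays, yet the difference of 0.27 was not called (adjusted p = 0.164).

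In the pyruvate dehydrogenase complex, 2 subunits moved in opposite directions. Pdhx, the protein that holds the dihydrolipoamide dehydrogenase in the complex, had 7.36, 7.02, 7.20, 7.08 and 7.47 in AKI kidneys, against 6.66, 6.94 and 6.78 in Control kidneys. It was the sole member that rose in this comparison (0.43, SE 0.13, adjusted p = 0.0194), without overlap. Dlat, the acetyltransferase core, fell by 0.34 (SE 0.10, adjusted p = 0.0189), with 9.18, 9.10, 8.93, 9.42 and 9.16 in AKI kidneys, against 9.44, 9.49 and 9.55 in Control kidneys. The differences of Pdha1 (-0.39, adjusted p = 0.099), the beta subunit Pdhb (-0.02) and Dld, the dehydrogenase shared with the 2-oxoglutarate complex (-0.001), were not called. Nor was that of Mpc1, a pyruvate carrier subunit (0.11).

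Of the glutamate and aspartate enzymes, Got2 alone was called. Got2, the mitochondrial aspartate aminotransferase, had 12.06, 12.25, 12.03, 12.25 and 12.08 in AKI kidneys, against 12.40, 12.31 and 12.29 in Control kidneys, and fell by 0.20 (SE 0.07, adjusted p = 0.0397). Got1, its cytosolic counterpart, had 11.17, 11.31, 11.17, 11.96 and 11.32 in AKI kidneys, against 11.24, 11.12 and 11.20 in Control kidneys. Its groups overlapped (difference 0.20, adjusted p = 0.384), and without AKI 4 the difference was 0.055 (adjusted p = 0.742, range 0.0692 to 1). Glud1, glutamate dehydrogenase, which feeds glutamate carbon into the cycle as 2-oxoglutarate, differed by -0.01.

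Of the 15 calls between AKI and Control kidneys, 7 held whichever single array was left out: Idh2, Me3, Ogdh, Aco1, Ogdhl, Idh3b and Dlst. Without Control 2, Mdh1 (-0.53, adjusted p = 0.0558), Me2 (-0.31, 0.0806), Dlat (-0.34, 0.0542), Mdh2 (-0.26, 0.0760), Got2 (-0.21, 0.0774), Cs and Idh3g were no longer called, which left 7 falling members. Pdhx was not called without Control 1 (0.37, 0.0963) or Control 3 (0.43, 0.0579), Dlat without Control 3 (-0.31, 0.0750), Mdh2 without Control 1, AKI 1 or AKI 3 (up to 0.125), and Got2 without any one of 8 arrays (up to 0.157). When sex-linked level (Xist minus the Y-linked mean) was a covariate, 0 of the 29 members and 0 of all genes were called by limma (712 genes at an unadjusted p under 0.05), and the members' median standard error was 0.57, against 0.13 in the fit without it.

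The deposited table lists no genomic position for its rows, but probe set numbers run in order along the chromosomes, and for 26 of the 29 members most of the 20 rows nearest in number belonged to genes of the member's own chromosome. The rows of Mpc1, Suclg2 and Got2 sat among genes of chromosomes 12, X and 5, while these genes lie on chromosomes 17, 6 and 8. For those 3, the gene and a copy elsewhere cannot be told apart. Second rows of Suclg2 and Got2 sat among their own chromosomes, and with them the AKI against Control differences were -0.27 (adjusted p = 0.263) and -0.18 (adjusted p = 0.0523), so the Got2 call was lost.

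Injury in Vhl-deleted kidneys was examined by setting VHL-KO/AKI kidneys against VHL-KO kidneys. Here 5 of the 29 members fell (17.2%, where 8.91% of all genes were called lower) and 0 rose by limma's test (4.66% of all genes were called higher). The fallers were Me3, Idh2, Me2, Ogdhl and Idh3b, all of which also fell in AKI against Control kidneys. The median difference over the members was -0.23, against -0.01 over all genes. In 9 members the VHL-KO/AKI arrays all lay below the VHL-KO arrays (14.9% of all genes), and 12 members had an unadjusted p under 0.05 (41.4%, against 27.3% of all genes).

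Me3 had 7.64, 7.54, 7.88, 7.58 and 7.11 in VHL-KO/AKI kidneys, against 8.45, 8.77 and 8.77 in VHL-KO kidneys. The groups were separate, and Me3 fell by 1.11 (SE 0.22, limma adjusted p = 0.00431), to 0.462 times the VHL-KO level. Idh2 had 9.77, 9.80, 10.12, 9.64 and 9.72 in VHL-KO/AKI kidneys, against 10.75, 10.68 and 10.94 in VHL-KO kidneys. No VHL-KO/AKI array reached the lowest VHL-KO array, and Idh2 fell by 0.98 (SE 0.25, adjusted p = 0.0179), to 0.507 times the VHL-KO level.

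Me2, a mitochondrial malic enzyme that uses NAD, had 7.22, 7.31, 7.23, 7.40 and 7.17 in VHL-KO/AKI kidneys, against 7.93, 7.82 and 7.54 in VHL-KO kidneys. It fell by 0.50 (SE 0.13, adjusted p = 0.0171) without overlap. Ogdhl had 5.47, 5.52, 5.54, 5.35 and 5.44 in VHL-KO/AKI kidneys, against 5.68, 6.19 and 5.92 in VHL-KO kidneys, and fell by 0.47 (SE 0.10, adjusted p = 0.00591). Idh3b had 11.66, 11.50, 11.71, 11.46 and 11.46 in VHL-KO/AKI kidneys, against 12.00, 11.96 and 12.06 in VHL-KO kidneys, and fell by 0.45 (SE 0.13, adjusted p = 0.0311). Neither gene's groups overlapped. Just past the threshold stood Ogdh, with a difference of -0.38 (adjusted p = 0.0505), and Mdh1, with -0.46 (adjusted p = 0.0661). Both were called without AKI 4, Ogdh at an adjusted p of 0.0226 (range 0.0226 to 1 over its alternatives) and Mdh1 at 0.00117 (range 0.00117 to 1).

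Among the other members whose groups did not overlap, Glud1 was higher in every VHL-KO/AKI array (11.28, 11.37, 11.57, 11.37 and 11.73) than in any VHL-KO array (11.13, 11.27 and 11.26), but its difference of 0.24 was not called (adjusted p = 0.183; 9.42% of all genes lay apart in this direction). Me3 and Ogdhl were the members called whichever array was left out. Idh2 was not called without VHL-KO 1 (-0.999, adjusted p = 0.0533) or VHL-KO 3 (-0.91, 0.0769), Me2 without VHL-KO 1 (-0.41, 0.0913) or VHL-KO 2 (-0.47, 0.0663), and Idh3b without any one of 6 arrays (up to 0.111). The number of falling members was 2 without VHL-KO 1, 3 without VHL-KO 2 or VHL-KO 3, and 10 without AKI 4 (12.9% of all genes then called lower), whose removal changes the spread shared by the groups but not the differences. Besides Ogdh and Mdh1, the fit without AKI 4 called Pdha1 (-0.33, adjusted p = 0.0101, range 0.0101 to 1), Idh3g (-0.33, 0.00909, range 0.00909 to 1) and Dlst (-0.28, 0.0423, range 0.0311 to 1). The covariate for sex-linked level left 0 members called here as well (359 genes at an unadjusted p under 0.05).

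**Figure D3:**
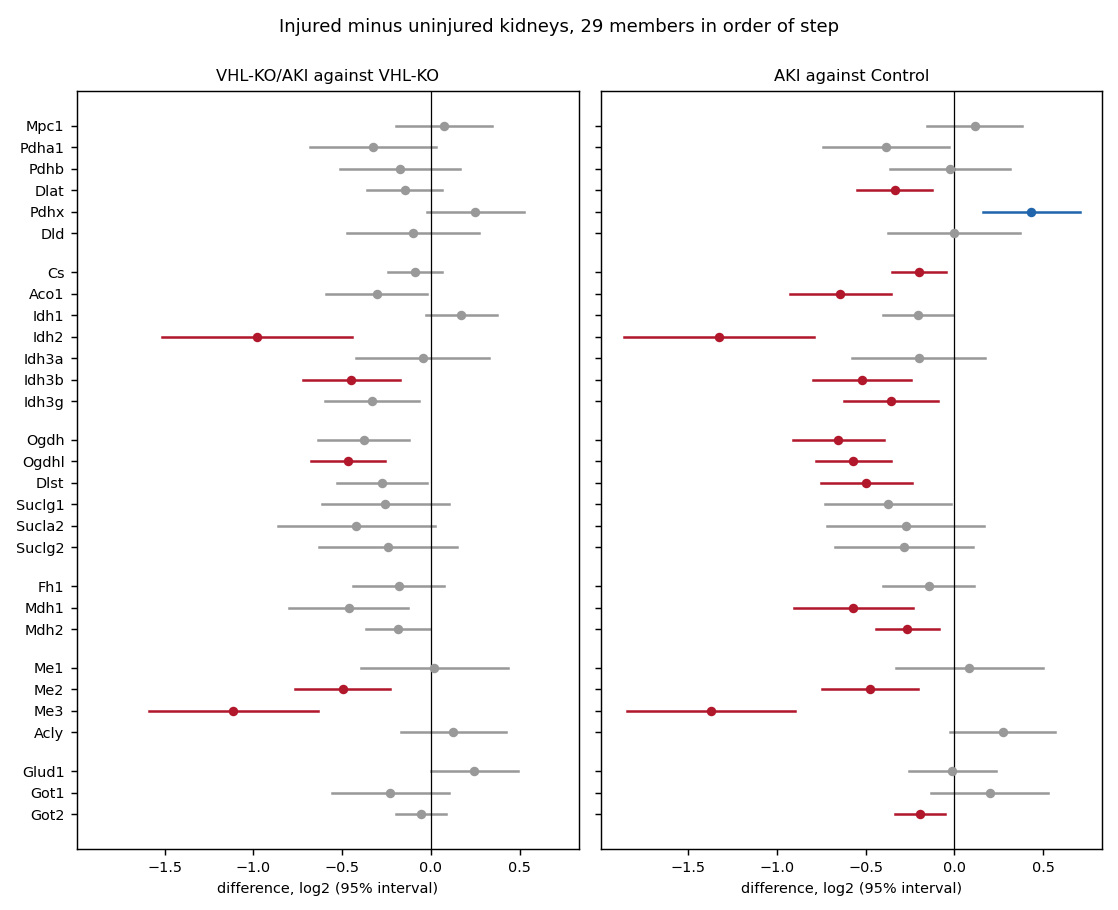
Difference (log2, horizontal axis) of injured minus uninjured kidneys for each of the 29 members in order of step, VHL-KO/AKI minus VHL-KO on the left and AKI minus Control on the right; points are limma estimates and lines 95% intervals, red called lower, blue called higher and grey not called. The left panel has 5 red genes and the right panel 14 red genes and 1 blue gene (Pdhx, 0.43).

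The deletion in injured kidneys was examined by setting VHL-KO/AKI kidneys against AKI kidneys. With all arrays, 0 of the 29 members were called by limma in either direction (2.48% of all genes were called higher and 1.4% lower), 2 members had an unadjusted p under 0.05 (6.9%, against 18.7% of all genes), and the groups were separate in 0 members (2.19% of all genes higher and 1.58% lower). The members' differences ran from -0.20 to 0.42, with a median of 0.09, against -0.01 over all genes, and 20 of the 29 were positive (69%, against 45.6% of all genes). The count changed when AKI 4 was left out: 4 members were then higher (7.23% of all genes were called higher), namely Idh2, Pdha1, Suclg2 and Idh3b.

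Idh2 had 9.77, 9.80, 10.12, 9.64 and 9.72 in VHL-KO/AKI kidneys, against 9.03, 9.12, 9.29, 10.47 and 9.04 in AKI kidneys. Every VHL-KO/AKI array lay above 4 of the AKI arrays and below AKI 4. The difference with all arrays was 0.42 (SE 0.22, adjusted p = 0.324). Without AKI 4 it was 0.69 (SE 0.10, adjusted p = 0.000885, in a range of 0.000885 to 0.544 over all alternatives tried). Pdha1 had 10.11, 10.01, 10.12, 10.12 and 10.02 in VHL-KO/AKI kidneys, against 9.55, 9.54, 9.81, 10.51 and 9.70 in AKI kidneys. The same array again decided the result: the difference was 0.25 (adjusted p = 0.373) with AKI 4 and 0.43 (adjusted p = 0.00296, range 0.00296 to 0.575) without it.

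For Idh3b the difference was 0.15 (adjusted p = 0.527) with all arrays and 0.27 (0.0168, range 0.0168 to 0.755) without AKI 4. For Suclg2 it was 0.20 (0.556) with all arrays and 0.38 (0.0186, range 0.0186 to 0.818) without AKI 4, and 0.35 (0.0275) without AKI 4 from the row among its own chromosome. Over all tested genes, 1442 were called higher without AKI 4 and 495 with it. Of the renal markers, 0 of 10 for the proximal tubule and 2 of 6 for the thick ascending limb (Kcnj1 and Cldn10) were called higher with all arrays, as was 1 of 6 for the collecting duct (Scnn1g), and 2 of 5 neutrophil markers were lower (median difference -0.85). The same fit without AKI 4 called higher 3 of 10 for the proximal tubule, 5 of 6 for the thick ascending limb, 2 of 4 for the distal convoluted tubule, 2 of 6 for the collecting duct, 1 of 6 for macrophages and 1 of 3 for adipose tissue, and called lower 2 of 5 for neutrophils and 1 of 4 for skeletal muscle. Their part in these differences was not tested.

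The members with the smallest p in this comparison were Me1 and Ogdhl. Me1 had 12.02, 11.41, 11.91, 11.66 and 11.47 in VHL-KO/AKI kidneys, against 11.25, 11.02, 11.30, 11.65 and 11.17 in AKI kidneys. The difference was 0.42 (SE 0.17, adjusted p = 0.194), with AKI 4 overlapping the VHL-KO/AKI arrays. Ogdhl had 5.47, 5.52, 5.54, 5.35 and 5.44 in VHL-KO/AKI kidneys, against 5.17, 5.15, 5.27, 5.49 and 5.23 in AKI kidneys, a difference of 0.20 (SE 0.09, adjusted p = 0.227). In both genes AKI 4 was the sole AKI array inside the range of the VHL-KO/AKI arrays.

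The deletion in uninjured kidneys was examined by setting VHL-KO kidneys against Control kidneys. In this comparison 0 of the 29 members were called by limma (0.527% of all genes were called), and 3, Idh1, Got2 and Me1, had an unadjusted p under 0.05 (10.3%, against 8.35% of all genes). The differences ran from -0.28 to 0.48, with a median of 0.02, equal to that over all genes to 2 decimals. In 5 members every VHL-KO array lay below every Control array (5.33% of all genes), and in 2 every one lay above (11.8% of all genes). Of the markers, all 5 endothelial ones lay higher without overlap, each at an unadjusted limma p under 0.05, with a median difference of 0.55. All 10 proximal tubule differences were negative, with a median of -0.28. No listed marker was called with all arrays, and 2 of the 5 endothelial ones were higher without AKI 4 (0.968% of all genes). The part of these markers in the members' differences was not tested.

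Idh1, the cytosolic NADP-dependent isocitrate dehydrogenase, had 12.30, 12.09 and 12.11 in VHL-KO kidneys, against 12.33, 12.51 and 12.49 in Control kidneys. The groups were separate by a narrow margin, with a difference of -0.28 (SE 0.10, adjusted p = 0.422). Got2 had 12.05, 12.23 and 12.19 in VHL-KO kidneys, against 12.40, 12.31 and 12.29 in Control kidneys, a difference of -0.17 (SE 0.07, adjusted p = 0.527). Me1 had 11.19, 11.92 and 11.92 in VHL-KO kidneys, against 11.12, 10.97 and 11.50 in Control kidneys. Its groups overlapped, and the difference of 0.48 had a 95% interval of 0.02 to 0.94 before adjustment (adjusted p = 0.574).

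**Figure D4:**
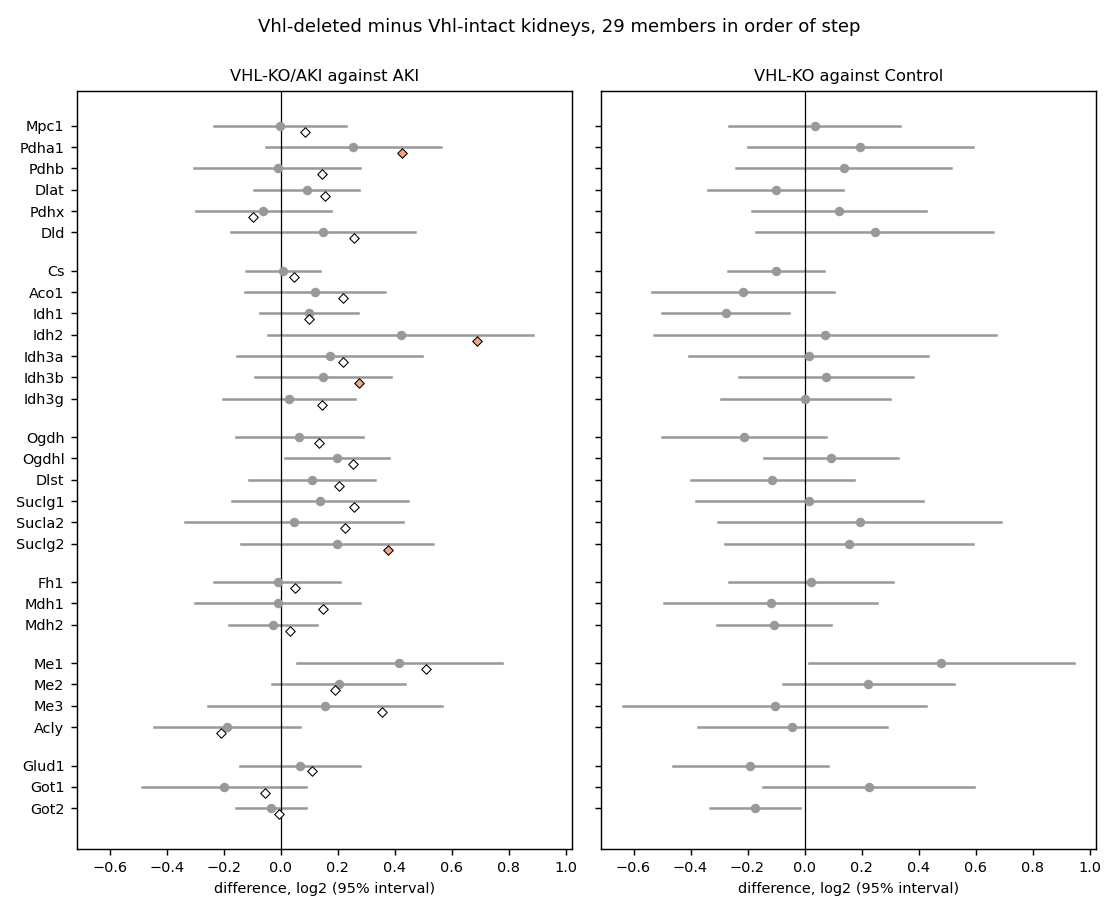
Difference (log2, horizontal axis) of Vhl-deleted minus Vhl-intact kidneys for each of the 29 members in order of step, VHL-KO/AKI minus AKI on the left and VHL-KO minus Control on the right; grey points are limma estimates that were not called and lines 95% intervals, and diamonds on the left are estimates without AKI 4, filled where called. All points with all arrays are grey, and the filled diamonds are Pdha1, Idh2, Idh3b and Suclg2, at 0.43, 0.69, 0.27 and 0.38.

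Whether the deletion acted differently in injured and uninjured kidneys was tested with the interaction, the difference of VHL-KO/AKI minus AKI less that of VHL-KO minus Control. By limma 0 of the 29 members were called (2 of all genes, 0.01%), and 1 member, Idh1, had an unadjusted p under 0.05 (3.45%, against 12% of all genes). The median interaction was 0.08 over the members and -0.02 over all genes. For Idh1 it was 0.38 (SE 0.13, adjusted p = 0.266): the deletion difference was 0.10 in injured kidneys and -0.28 in uninjured ones, with levels of 12.50, 12.36, 12.23, 12.35 and 12.27 in VHL-KO/AKI kidneys and 12.37, 12.36, 11.96, 12.24 and 12.27 in AKI kidneys. For Got1, the next by p, it was -0.43 (SE 0.22, adjusted p = 0.469). Idh2 was called for the interaction without AKI 4 (1.47% of all genes were then called higher; 0.62, SE 0.16, adjusted p = 0.0481, range 0.0481 to 0.877) and not with it (0.35, adjusted p = 0.760).

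The cytosolic and mitochondrial forms of the same reaction were compared within each array as the mitochondrial minus the cytosolic log2 level, which shows unequal change and not which form changed. An exact two-sided permutation test was run for 4 pairs in 4 comparisons (16 tests, Benjamini-Hochberg adjusted over them). Me3 minus Me1 differed by -1.46 between AKI and Control kidneys (exact p = 0.0357, adjusted p = 0.143) and by -1.13 between VHL-KO/AKI and VHL-KO kidneys (exact p = 0.0357, adjusted p = 0.143). Idh2 minus Idh1 differed by -1.15 between VHL-KO/AKI and VHL-KO kidneys (exact p = 0.0357, adjusted p = 0.143) and by -1.12 between AKI and Control kidneys (exact p = 0.107, adjusted p = 0.214). None of the 16 passed the adjusted threshold, and with 5 arrays against 3 the exact test cannot go below 0.0357. A single test at that floor cannot pass after adjustment over 16, so the lack of calls does not show equal change.

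The pairs did not all lean the same way. Got2 minus Got1 differed by -0.39 between AKI and Control kidneys (exact p = 0.0357, adjusted p = 0.143). Mdh2 minus Mdh1 differed by 0.30 in the same comparison (exact p = 0.143, adjusted p = 0.229), since Mdh1 had the larger fall of the pair. Got2 minus Got1 also differed by -0.40 between VHL-KO and Control kidneys, without overlap, at the smallest p that 3 against 3 allows (exact p = 0.1, adjusted p = 0.214). Without AKI 4 the AKI minus Control differences were -1.56 for Me3 minus Me1, -1.39 for Idh2 minus Idh1, -0.28 for Got2 minus Got1 and 0.405 for Mdh2 minus Mdh1, each at the smallest p that 4 against 3 allows (exact p = 0.0571, adjusted p = 0.127). Between VHL-KO/AKI and AKI kidneys, Idh2 minus Idh1 differed by 0.59 without AKI 4 (exact p = 0.0476, adjusted p = 0.127) and by 0.32 with it (exact p = 0.373, adjusted p = 0.426).

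**Figure D5:**
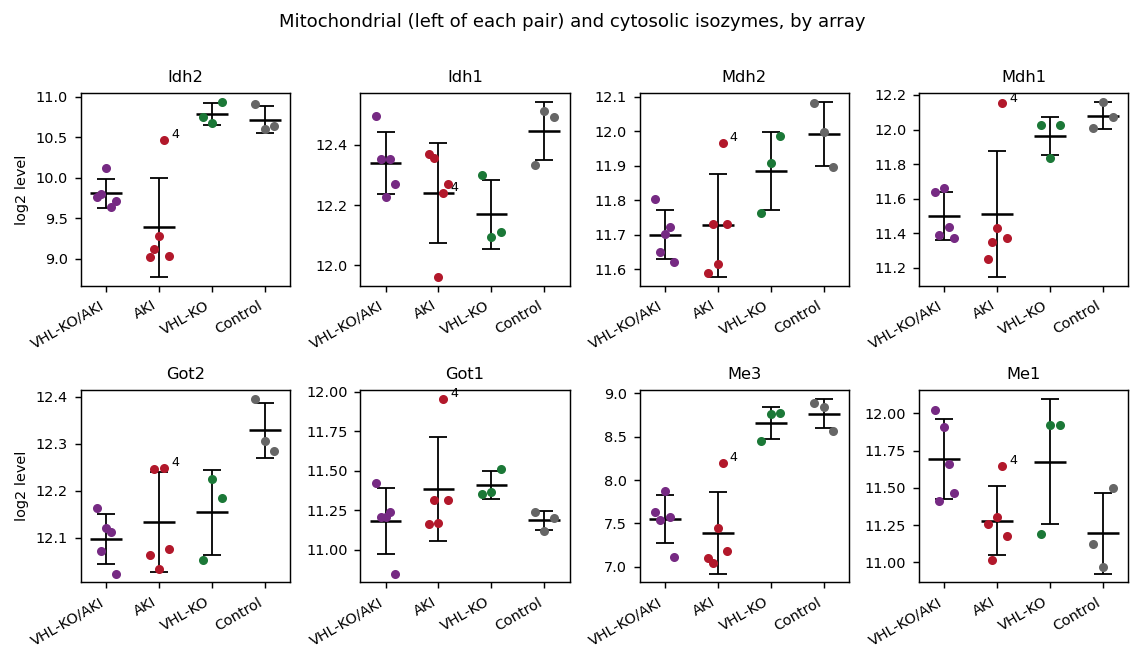
Log2 level (vertical axes, a scale for each gene) of 4 mitochondrial enzymes and, to the right of each, the cytosolic enzyme of the same reaction, 1 point per array, with group mean and SD as bars and AKI 4 numbered. Me3 averages 7.55 in VHL-KO/AKI, 7.39 in AKI, 8.66 in VHL-KO and 8.77 in Control kidneys, while Me1 averages 11.70, 11.28, 11.68 and 11.20 in the same groups.

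Genes around the cycle that are not members were read from lists of its regulators, partners and carriers. Succinate dehydrogenase oxidises succinate to fumarate inside the cycle and is complex II of the respiratory chain. Its list holds the subunit genes Sdha, Sdhb, Sdhc and Sdhd and the assembly factor genes Sdhaf1, Sdhaf2 and Sdhaf4. AKI and Control arrays overlapped for each assembly factor gene and, through AKI 4, for Sdhd. In AKI against Control kidneys 4 of the 7 genes fell (57.1%, where 14.9% of all genes were called lower), with a median difference of -0.58. The largest were Sdhb (-0.77, limma adjusted p = 0.00120), Sdhc (-0.77, 0.000473) and Sdha (-0.66, 0.00311). In VHL-KO/AKI against VHL-KO kidneys 3 of 7 fell (42.9%, against 8.91% of all genes), Sdhc by 0.61, Sdhb by 0.58 and Sdha by 0.56. Both counts were the same without AKI 4. That fit also called 1 of 7 higher in VHL-KO/AKI against AKI kidneys (7.23% of all genes), where 0 were called with all arrays. Acod1, whose product makes itaconate, rose by 0.38 (adjusted p = 0.00594) in AKI against Control kidneys. Its mean levels there, 4.93 and 4.55, lay well below the array medians of 5.92 to 6.03.

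Of the 7 kinases and phosphatases that switch pyruvate dehydrogenase off and on, 5 fell and 1 rose in AKI against Control kidneys (14.9% of all genes lower and 13.2% higher). Pdk4, a kinase that inhibits the complex, rose by 3.37 (SE 0.77, adjusted p = 0.00432), Pdp2, a phosphatase that activates it, fell by 2.15 (SE 0.18, adjusted p = 3.6e-06), and Pdk2, another kinase, fell by 1.53 (SE 0.25, adjusted p = 0.000476). Pdk1, a kinase known as a HIF target, was the listed gene that rose with the deletion in both settings, by 2.07 in VHL-KO/AKI against AKI kidneys (SE 0.16, adjusted p = 9.01e-06) and by 1.57 in VHL-KO against Control kidneys (SE 0.21, adjusted p = 0.00277). Its own interaction was 0.51 (SE 0.27, adjusted p = 0.481). In VHL-KO/AKI against VHL-KO kidneys, 1 of the 7 was called, Pdp2, which fell by 1.01 (adjusted p = 0.00220; 8.91% of all genes were called lower). Without AKI 4, 4 of the 7 were lower there (12.9% of all genes). In the same fit, 5 of the 7 were higher in VHL-KO/AKI against AKI kidneys (7.23%) and 4 in the interaction (1.47%). With all arrays these counts were 1 (2.48%) and 0.

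Without AKI 4, enzymes that fill or drain the cycle fell in 11 of 14 tested genes in AKI against Control kidneys (17% of all genes). With all arrays 9 of the 14 fell (64.3%, where 14.9% of all genes were called lower), with a median of -0.76. They were led by Abat, which breaks down GABA towards succinate (-1.56, adjusted p = 0.00115), Nnt, which makes mitochondrial NADPH (-1.17, 0.00107), and Pck1, the cytosolic enzyme that turns oxaloacetate into phosphoenolpyruvate for gluconeogenesis (-1.04, 0.00759). In VHL-KO/AKI against AKI kidneys 3 of the 14 rose, Pck1 by 1.32 (0.00633), the alanine aminotransferase Gpt2 by 0.90 (0.0294) and the mitochondrial Pck2 by 0.36 (0.0248). That was 21.4%, against 2.48% of all genes. Without AKI 4, 8 of the 14 rose there (7.23% of all genes) and 1 in the interaction (1.47%), where 0 were called with all arrays. In VHL-KO/AKI against VHL-KO kidneys 4 fell and 1 rose (8.91% of all genes lower and 4.66% higher), and without AKI 4, 7 fell and 1 rose (12.9% and 6.73%). Among the genes called there with all arrays, the largest differences were those of Nnt (-0.88), Mcee (-0.70) and Pcca (-0.69). Both Mcee and Pcca act on the way of propionyl-CoA to succinyl-CoA. Abat also lay apart, at 10.065 to 10.598 in VHL-KO/AKI kidneys against 11.095 to 11.311 in VHL-KO kidneys.

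The 4 genes of acetyl-CoA supply and use all fell in AKI against Control kidneys (14.9% of all genes were called lower), led by the acetyl-CoA synthetases Acss1 (-2.04, adjusted p = 0.000330) and Acss2 (-1.63, 0.0257) and by the fatty acid synthase Fasn (-0.66, 0.0229). Acss1, the mitochondrial form, also fell by 1.70 in VHL-KO/AKI against VHL-KO kidneys (adjusted p = 0.00305). It was 1 of the 4 called there (8.91% of all genes lower). Without AKI 4, 2 of the 4 fell there (12.9% of all genes) and 2 rose in VHL-KO/AKI against AKI kidneys (7.23%), where 0 were called with all arrays. Of 8 carriers of cycle acids, 5 fell and 1 rose in AKI against Control kidneys (14.9% of all genes lower and 13.2% higher). Without AKI 4, 7 fell and 1 rose (17% and 17.2% of all genes). The dicarboxylate transporters Slc13a2 (-2.37, adjusted p = 0.00120) and Slc13a3 (-2.23, 0.00125), which take up citrate and other cycle acids at opposite faces of the proximal tubule cell, had the largest falls, and the mitochondrial glutamate carrier Slc25a22 rose by 1.11 (0.0330). With all arrays, none of the 8 carriers and none of the 3 lipoate synthesis genes was called in VHL-KO/AKI against VHL-KO kidneys. Without AKI 4, 3 of the 8 carriers were lower there (12.9% of all genes) and 1 of the 3 lipoate synthesis genes was higher (6.73%). In the same fit, 5 of the 8 carriers were higher in VHL-KO/AKI against AKI kidneys (7.23%) and 4 in the interaction (1.47%). Each of these counts was 0 with all arrays.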

How the data were processed

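Kidney RNA of 16 mice was measured on single-colour whole-transcript arrays, and the authors deposited log2 probe set levels, here 3.34 to 14.71. Per the submitters' processing notes, Partek 6.4 and RMA were used. The sources used here do not give their order, their settings or a genome build. The table has 35556 rows, of which 21789 have 1 gene symbol, 1621 several and 12146 none. Rows with 1 symbol were tested, the row with the highest mean standing for a gene (999 genes had several rows), which left 19938 genes. No further scaling was applied (array medians 5.92 to 6.03). No pair of arrays was identical (0 pairs). The number of arrays limits the precision.

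The 4 title groups were fitted together in limma 3.58.1 (R 4.3.3) with 1 mean per group and 12 residual degrees of freedom, with 2-sided tests and a threshold of 0.05 on the Benjamini-Hochberg adjusted p. Standard errors are those of that fit. Mitochondrial and cytosolic pairs were compared by exact permutation (scipy 1.17.1). The members, the lists and the alternatives were chosen with earlier results of these data known. Values by array are given for the called members with the largest differences (up to 8 in AKI against Control and in VHL-KO/AKI against VHL-KO), for the members with the smallest p where none was called, and for isozyme pairs. Pdhx, Dlat, Acly, Glud1 and Pdha1 were added after their values were seen. The pair of Me3 and Me1 was added to the isozyme pairs set at the start. Of each other list up to 3 called genes are named, Pdk1 being one in the deletion comparisons. Alternatives covered row choice, a filter on dim genes, scaling, variance, array weights, the groups fitted, a replicate block, a sex-linked covariate and each array left out.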

Additional observations from a re-analysis of the deposited data

Results flagged for a closer look

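In 58 sets of 5 arrays (29 members in each injured group), 10 had an end value farther from the others than Dixon's criterion allows, a criterion that chance alone exceeds in about 1 set in 20. Of the 10, 7 were high values of AKI 4. In that array Pdha1 was 10.509 (other AKI arrays 9.54 to 9.81), Pdhb 9.042 (8.13 to 8.38), Idh2 10.465 (9.03 to 9.29) and Idh3b 11.916 (11.17 to 11.38). There Dlst was 10.529 (10.01 to 10.09), Mdh1 12.151 (11.25 to 11.43) and Got1 11.956 (11.17 to 11.32). The mean proximal tubule marker level of AKI 4 was 11.99, against 10.56 to 11.20 in the other AKI arrays. Its thick ascending limb marker level was 11.12, against 9.24 to 9.68. Their part in these values was not tested.

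The other 3 lay elsewhere. In VHL-KO/AKI 5, Dlat was 9.001 (other VHL-KO/AKI arrays 9.29 to 9.35) and Fh1 was 11.182 (10.65 to 10.76). In AKI 5, Glud1 was 11.047 (other AKI arrays 11.43 to 11.56).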

How the results depend on the processing

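Alternatives for all members were set against the counts of called members. In AKI against Control kidneys (14 lower, 1 higher), leaving out 1 array gave 7 (11.6% of all genes, without Control 2) to 18 lower (17%, without AKI 4) and 0 to 1 higher. Fitting the compared groups alone gave 8 lower (11.4% of all genes), and the sex-linked covariate gave 0 lower and 0 higher. In VHL-KO/AKI against AKI kidneys (0 higher), leaving out 1 array gave 0 to 4 higher, array weights 4 (8.46% of all genes) and leaving out Control 3 and AKI 4 together 4 (6.88%). In VHL-KO/AKI against VHL-KO kidneys (5 lower), leaving out 1 array gave 2 (5.92% of all genes, without VHL-KO 1) to 10 lower (12.9%, without AKI 4), array weights 11 (14.1% of all genes), the compared groups alone 9 (11.5%), Control 3 and AKI 4 left out together 9 (12.2%), and the sex-linked covariate 0. The interaction (0 higher) gave 0 to 1 higher when 1 array was left out. Leaving out both arrays, leaving AKI 4 out of the markers, the other lists and the isozyme pairs, and rows by chromosome, were chosen after seeing the data. Median centring, quantile and cyclic loess scaling gave 10, 10 and 13 lower in AKI against Control (13.7%, 14.9% and 15.7% of all genes). Counts for VHL-KO against Control stayed at 0 under all alternatives.

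With the sex-linked covariate the sign turned, at adjusted p = 1, for Mdh2 (0.217), Me2 (0.320) and Got2 (0.057) in AKI against Control, and for Idh2 (0.206), Idh3b (0.106), Me2 (0.443) and Me3 (0.244) in VHL-KO/AKI against VHL-KO. The members' median standard error there was 0.57 and 0.66, against 0.13 in each without it. The cause was not tested.

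Same-numbered arrays of different groups did not deviate together (correlations of deviations -0.38 to 0.20, median -0.04, 20 pairs). The replicate block gave 13 lower and 0 higher in AKI against Control and 5 lower in VHL-KO/AKI against VHL-KO.

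Over all genes, median centring moved the split of calls to 1700 higher and 1151 lower in VHL-KO/AKI against VHL-KO (929 and 1776 as deposited), 359 and 400 in VHL-KO/AKI against AKI (495 and 279), and 47 and 13 in VHL-KO against Control (95 and 10). Quantile scaling gave 1193 and 1339, 395 and 417, and 56 and 15.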
